A study of Mus musculus with 12 samples.

Results

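Lysosome and vacuolar ATPase genes were followed in mouse natural killer (NK) cells, lymphocytes that kill target cells with granules related to lysosomes and that secrete the cytokine interferon gamma. The genes were the 33 named members that have a row in the deposited expression table, out of 55487 features. They comprised 7 lysosomal membrane proteins, 6 proteases, 8 glycosidases and lipid-handling proteins, 2 transcription factors of the MiT/TFE family and 10 subunits or accessory proteins of the proton pump. Of the 33, 32 exceeded 0 on the log2 scale of counts per 1000000 reads (CPM) in at least 4 samples and were tested with 12364 genes in all. Ctsh, the gene for the protease cathepsin H, did not reach that level. It had 0 to 0.210 CPM in the unstimulated samples, 0.622 to 1.04 CPM in the YFP- samples and 0.204 to 1.34 CPM in the YFP+ samples, and is described no further.

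RNA sequencing covered 12 samples in 3 groups of 4. All cells came from the strain B6.129S4-Ifngtm3.1Lky/J with the genotype given as mut/mut, in which a yellow fluorescent protein (YFP) reports the interferon gamma gene Ifng, and all carried the label HD IL-15, the series describing the cells as primed with interleukin 15. The 3 groups were cells left unstimulated, and cells that did not express the reporter (YFP-) or did express it (YFP+) after 6 h with an antibody against NK1.1, an activating receptor of NK cells. No time is listed for the unstimulated samples, and what a difference in time would contribute was not tested. Each group held samples named f2, m2, m3 and m4. Animal ages are not given in the sources used here, and nothing says whether the samples came from separate animals, so p-values measure the spread between these samples, which may be technical.

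Lysosomes are acidic compartments in which hydrolases break down proteins, lipids and sugars, and lytic granules of NK cells are built on the same membranes and enzymes. The acid is supplied by the vacuolar ATPase, in which a cytosolic V1 sector burns ATP to turn a ring in the membrane-embedded V0 sector and so carry protons inwards. The transcription factors TFEB and TFE3 bind E-box-like promoter elements of many lysosomal genes, and the kinase complex mTORC1 on the lysosome surface holds them in the cytosol when nutrients are plentiful.

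The libraries held 32.1 to 54.2 M counted reads, so 3 reads corresponded to 0.0553 to 0.0933 CPM, and no tested member had fewer than 201 reads in any library. Ifng itself had 3.66 to 4.19 CPM in the unstimulated, 36.6 to 54.5 CPM in the YFP- and 304 to 343 CPM in the YFP+ samples, in the order of the labels. The summed level of 9 NK cell markers was 13560 to 16232 CPM in the unstimulated, 9572 to 12106 CPM in the YFP- and 10141 to 14090 CPM in the YFP+ samples. Gzma alone gave 7843 to 9334 CPM of it in the unstimulated samples, and single markers moved in both directions. Klrb1c had 290 to 327, 57.6 to 86.6 and 3.70 to 8.97 CPM in that order, and Ncr1, Klrd1 and Eomes were also lowest in YFP+ samples. Tbx21 had 29.0 to 38.5, 66.8 to 93.3 and 62.8 to 115 CPM, and Klrk1 was also higher in both stimulated groups. Macrophage and monocyte markers, whose cells are rich in lysosomes, summed to 1.42 to 3.0, 0.612 to 1.72 and 0.388 to 0.933 CPM in the same order, and 9 of those 10 genes stayed below 1 CPM in every library. The 5 neutrophil markers were all below 1 CPM, with no read for S100a9 or Retnlg. The 6 dendritic cell markers summed to 2.28 to 3.79, 18.8 to 22.1 and 7.05 to 13.6 CPM, with 4 of them below 1 CPM everywhere. The part of that shift in the results was not tested. T cell markers summed to 52.7 to 112, 68.1 to 93.8 and 63.7 to 96.0 CPM, and B cell markers to 1.86 to 4.19, 0.968 to 2.90 and 0.608 to 1.37 CPM. Within the T cell sum, markers moved in opposite directions. Trac had 6.83 to 8.47, 27.6 to 41.9 and 40.4 to 54.5 CPM. Cd3g had 30.9 to 79.4, 24.4 to 41.7 and 11.7 to 31.9 CPM. Cd3d had 14.2 to 25.9, 12.8 to 20.6 and 7.25 to 13.8 CPM. What these shifts contribute to the results was not tested.

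YFP+ m3 and unstimulated m4 stood apart as low for the members, and YFP- m3 did in part. At the high end, YFP- m2 held the highest level of its group for 25 of 32 members, against 40.4% of all genes tested. YFP+ f2 did so for 22 of 32, against 33.4%, and unstimulated f2 for 14 of 32, against 19.2%. In the YFP+ sample m3, 21 of 32 members had the lowest level of their group, against 40.8% of all genes tested, and 10 lay more than 1 log2 unit below the mean of the other YFP+ samples. In the unstimulated sample m4, 19 of 32 members were lowest, against 39.8% of all genes, and 4 lay that far below. The share of reads from ribosomal RNA-like features was 29.8% in YFP+ m3, against 13.7% to 23.1% in the other YFP+ samples, and 35.3% in unstimulated m4, against 27.4% to 30.8%. In YFP- m3 it was 30.3%, against 15.9% to 20.0% in the other YFP- samples, and 21 of 32 members were lowest there, against 55.0% of all genes, with no member more than 1 log2 unit low. Reads of mitochondrially encoded genes made up 0.59% to 0.95% of the unstimulated, 0.63% to 0.86% of the YFP- and 0.32% to 0.42% of the YFP+ libraries, so the YFP+ libraries lay below all others. The part of either share in the members' levels was not tested. Counts are given below with and without YFP+ m3 and unstimulated m4, called the 2 libraries that stood apart, and without all samples labelled m3.

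Relative to unstimulated cells and as scaled here, 6 of 10 proton pump genes passed the test in each stimulated population, all higher. Genes of lysosomal hydrolases and membrane proteins passed in both directions. In YFP- cells 16 of 32 members passed the test (adjusted p under 0.05 by limma with Benjamini-Hochberg adjustment over all genes tested), 12 higher and 4 lower. This 50.0% was close to the 51.1% of all genes that passed, of which 30.2% were higher and 20.9% lower. In YFP+ cells 18 of 32 passed, 10 higher and 8 lower, or 56.3% against 60.8% of all genes, with 27.5% higher and 33.3% lower. The median difference of the 32 members was 0.49 on the log2 scale in YFP- cells, where that of all genes was 0.14, and 0.07 in YFP+ cells, where that of all genes was -0.03. Without the 2 libraries that stood apart, a choice made after seeing the data, 16 and 20 members passed, and without the samples labelled m3, 17 and 19. Both comparisons use the same unstimulated samples, so they are not independent. With library totals that left out ribosomal RNA-like features, the median of all genes became -0.05 in YFP- and -0.21 in YFP+ cells, and the share of calls that were higher in YFP- cells moved from 59.1% to 47.2%.

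**Figure D1:**
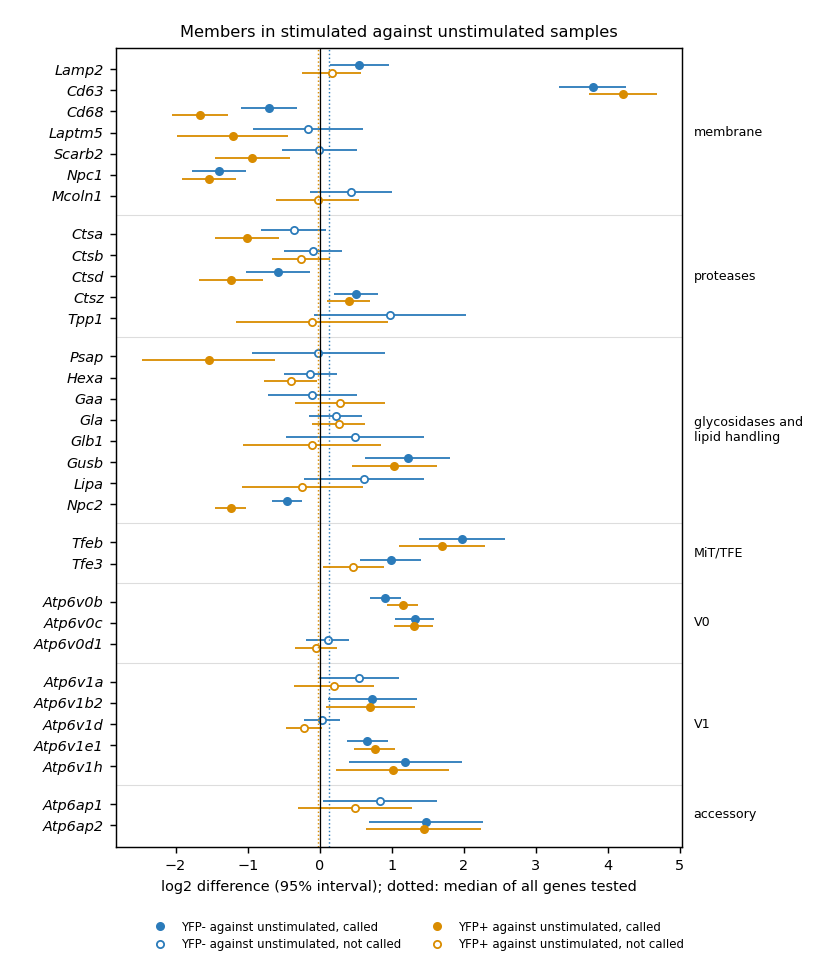
Difference of each tested member from unstimulated cells, with YFP- cells in blue and YFP+ cells in orange. The horizontal axis is the log2 difference in CPM, the lines are 95% intervals, filled points passed the test, dotted lines mark the median of all genes tested, and roles stand on the right. Cd63 lies farthest to the right at 3.79 and 4.21, and 6 of 10 pump genes are filled in each comparison, all to the right of 0.

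Between the stimulated populations, 6 of 32 members passed the test as scaled here, 0 higher and 6 lower in YFP+ cells. The 18.8% of members lower was close to the 18.5% of all genes that were lower, while 3.28% of all genes were higher and 21.8% passed in either direction. The median over the members was -0.28 and over all genes -0.19. The 6 were Psap, Cd68, Scarb2, Npc2, Ctsd and Ctsa. Without the 2 libraries that stood apart, 3 passed, and Ctsa, Ctsd and Psap were lost. Without the samples labelled m3, 2 passed, Cd68 and Npc2. With trimmed-mean scaling 1 member was higher, Atp6v0b, and 4 lower, with Ctsa and Ctsd lost. After centring on expressed genes 3 were higher, Cd63, Atp6v0b and Atp6v1e1, and the same 4 were lower. The mitochondrial share of reads given above moved with this comparison too. The direction of the all-gene background depends on the scaling: its median was -0.04 with trimmed-mean scaling, 0.06 after quantile normalization and 0.07 after centring on expressed genes, and the share of calls that were higher moved from 15.1% to 37.7%, 44.9% and 50.2%.

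**Figure D2:**
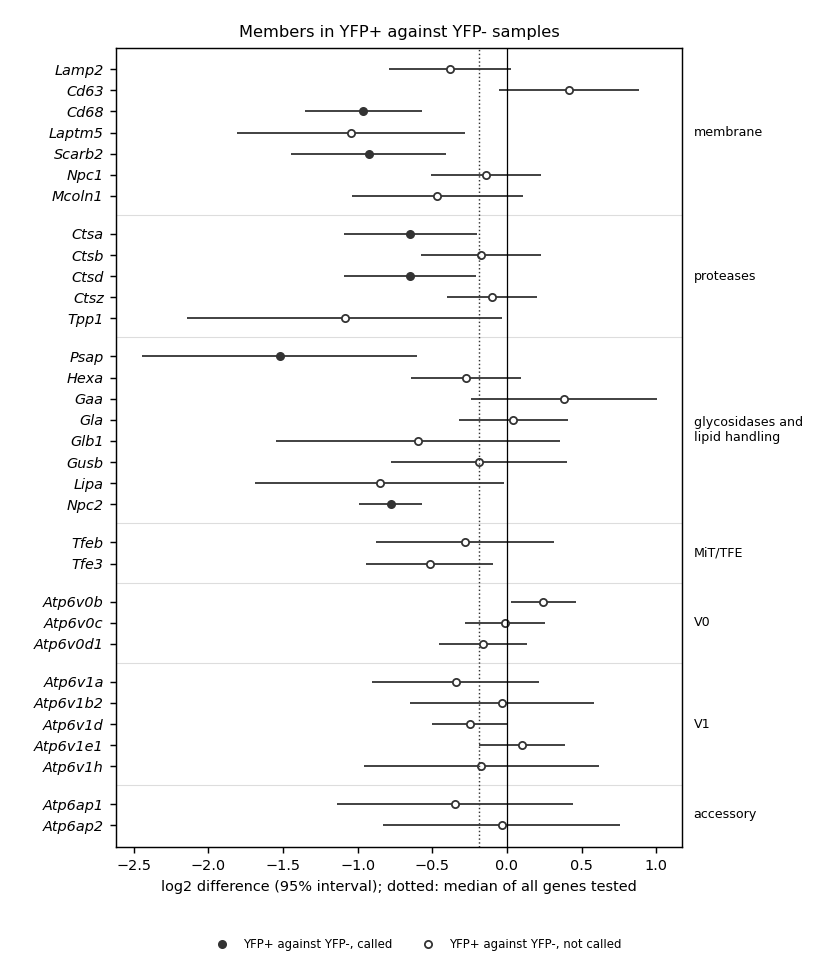
Difference of each tested member between YFP+ and YFP- cells, arranged by role as in the plot against unstimulated cells. The horizontal axis is the log2 difference in CPM with 95% intervals, filled points passed the test and the dotted line marks the median of all genes, -0.19. The filled points are Cd68, Scarb2, Ctsa, Ctsd, Psap and Npc2, all left of 0. No pump gene is filled on this scale, whereas Atp6v0b passed as higher with trimmed-mean scaling, and Atp6v0b and Atp6v1e1 after centring.

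The transcription factor genes came first in the pathway and both were higher in YFP- than in unstimulated cells. Tfeb, which encodes a master regulator of lysosomal gene expression, had 8.52, 9.73, 9.92 and 10.2 CPM in unstimulated samples f2, m2, m3 and m4. It had 40.2, 43.5, 26.5 and 43.0 CPM in the YFP- samples and 37.7, 47.6, 15.8 and 32.6 CPM in the YFP+ samples, in the same order. Every stimulated sample lay above every unstimulated one, sample m3 was the lowest in each stimulated group, and the stimulated groups overlapped. Tfeb was 3.92-fold higher in YFP- (log2 difference 1.97, SE 0.28, adjusted p = 6.34e-05) and 3.24-fold higher in YFP+ cells (1.69, SE 0.28, adjusted p = 0.000124). Between YFP+ and YFP- the difference was -0.28, with a 95% interval from -0.88 to 0.32 (adjusted p = 0.510).

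Tfe3, which encodes a close relative of TFEB with overlapping targets, had 9.57, 7.05, 8.84 and 9.25 CPM in the unstimulated, 15.8, 24.4, 13.1 and 16.8 CPM in the YFP- and 11.8, 15.3, 10.1 and 11.1 CPM in the YFP+ samples. Neither stimulated group overlapped the unstimulated group, and the stimulated groups overlapped each other. The gene was 1.98-fold higher in YFP- cells (log2 difference 0.99, SE 0.20, adjusted p = 0.000996). The difference of 0.47 in YFP+ cells did not pass the test (adjusted p = 0.0536). It did pass in 7 of 17 alternative settings, among them trimmed-mean scaling, and without the 2 libraries that stood apart (0.58, adjusted p = 0.0438). YFP+ against YFP- gave -0.52, which did not pass (adjusted p = 0.0783). With totals that left out ribosomal RNA-like features it passed as lower (adjusted p = 0.0412).

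As scaled here, the proton pump genes that passed against unstimulated cells were all higher. Summed over the 10 pump members, the level was 625 CPM ± 48.8 (SD, n = 4) in the unstimulated, 1086 CPM ± 118 in the YFP- and 1077 CPM ± 235 in the YFP+ samples. In each stimulated population 6 of 10 were higher than in unstimulated cells and 0 lower. This 60% stood beside 51.1% of all genes that passed in YFP- cells, 30.2% higher, and 60.8% in YFP+ cells, 27.5% higher. Atp6v0d1, Atp6v1a, Atp6v1d and Atp6ap1 passed in neither. The 10 had median differences of 0.78 in YFP- and 0.73 in YFP+ cells. With library totals that left out ribosomal RNA-like features these medians were 0.60 and 0.54. On those totals Atp6v1d passed as lower in YFP+ than in unstimulated cells, and the calls of Atp6v1b2 were lost. Atp6v1d also passed as lower there after quantile normalization. No pump member passed between YFP+ and YFP- as scaled here, and Atp6v0b with trimmed-mean scaling and Atp6v0b and Atp6v1e1 after centring passed as higher. The differences ran from -0.35 to 0.24 around a median of -0.10. That median's sign depends on the scaling and became 0.05 with trimmed-mean scaling.

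In the V0 sector, Atp6v0c encodes the proteolipid that makes up most of the rotating ring and Atp6v0b a related ring subunit. Atp6v0c had 96.8 to 103 CPM in the unstimulated, 214 to 286 CPM in the YFP- and 217 to 292 CPM in the YFP+ samples, with no overlap between unstimulated and stimulated samples. It was 2.49-fold higher in YFP- (adjusted p = 2.44e-06) and 2.47-fold higher in YFP+ cells (adjusted p = 9.26e-07), and between the latter 2 groups the 95% interval of the log2 difference was -0.28 to 0.25. Its annotated pseudogenes Atp6v0c-ps1 and Atp6v0c-ps2 reached at most 0.813 and 11.9 CPM. The latter went from 3.29 to 4.53 CPM in the unstimulated to 8.71 to 11.9 CPM in the YFP- samples, and how reads were shared between the copies is not given in the sources used here.

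Atp6v0b had 75.4 to 91.6 CPM in the unstimulated, 159 to 170 CPM in the YFP- and 181 to 209 CPM in the YFP+ samples, and the 3 groups did not overlap. It was 1.88-fold higher in YFP- (adjusted p = 9.00e-06) and 2.22-fold higher in YFP+ cells (adjusted p = 4.28e-07). The difference of 0.24 between YFP+ and YFP- did not pass as scaled here (adjusted p = 0.107). It was called higher with trimmed-mean scaling and with centring on expressed genes.

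Atp6v0d1, the subunit that joins the ring to the central stalk, passed in no comparison. It stayed between 54.3 and 84.4 CPM in every sample, with means of 68.9 CPM ± 3.43, 74.7 CPM ± 8.42 and 67.2 CPM ± 11.8. Its difference from unstimulated cells was 0.11 in YFP- (95% interval -0.18 to 0.41) and -0.05 in YFP+ cells (-0.35 to 0.24).

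Among V1 members, Atp6v1e1, a peripheral stalk subunit, was 1.58-fold higher in YFP- (adjusted p = 0.00108) and 1.70-fold higher in YFP+ cells (adjusted p = 0.000217), from 67.3 CPM ± 2.38 to 107 CPM ± 13.3 and 115 CPM ± 19.2. Atp6v1h, a regulatory subunit of V1, rose 2.27-fold in YFP- (adjusted p = 0.0151) and 2.02-fold in YFP+ cells (adjusted p = 0.0271). Its YFP+ samples spread from 29.2 CPM in m3 to 103 CPM in f2 and overlapped the unstimulated range of 17.2 to 43.3 CPM. Its YFP- call was lost without m4 (adjusted p = 0.103), and its YFP+ call without f2, m2 or m4 (adjusted p from 0.0839 to 0.160) and in a fit of only the 8 samples compared. Atp6v1b2, a subunit of the ATP-binding head, was 1.66-fold higher in YFP- (adjusted p = 0.0472) and 1.62-fold higher in YFP+ cells (adjusted p = 0.0482), close to the threshold. Its YFP- call was lost in 8 and its YFP+ call in 5 of 17 alternative settings, both of them with totals that left out ribosomal RNA-like features, without f2 and without m2 (adjusted p from 0.0755 to 0.267 for the last 2). Without the 2 libraries that stood apart the YFP- call was lost (adjusted p = 0.0629).

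As fitted here, the catalytic head subunit gene Atp6v1a and the central stalk gene Atp6v1d passed in no comparison. In 2 of 17 alternative settings each, Atp6v1a passed as higher in YFP- and Atp6v1d as lower in YFP+ than in unstimulated cells. Atp6v1a had 34.1 CPM ± 2.46 in the unstimulated, 50.2 CPM ± 9.78 in the YFP- and 42.2 CPM ± 18.5 in the YFP+ samples, and its difference in YFP- cells was 0.54 (95% interval -0.01 to 1.1). Atp6v1d had 82 CPM ± 3.63, 83.9 CPM ± 8.34 and 70.6 CPM ± 7.72, with a difference of 0.03 in YFP- cells (-0.22 to 0.28).

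Of the accessory proteins, Atp6ap2, which encodes the (pro)renin receptor and takes part in pump assembly, had 29.0, 26.0, 23.2 and 12.4 CPM in the unstimulated samples f2, m2, m3 and m4. It had 70.5, 71.9, 48.6 and 52.7 CPM in the YFP- and 94.6, 89.9, 26.0 and 53.4 CPM in the YFP+ samples. The YFP- samples lay above all unstimulated ones, while YFP+ m3 fell within the unstimulated range. The gene was 2.78-fold higher in YFP- (log2 difference 1.48, SE 0.37, adjusted p = 0.00450) and 2.72-fold higher in YFP+ cells (1.44, SE 0.37, adjusted p = 0.00386). Without the 2 libraries that stood apart these differences were 1.21 and 1.57, and both passed.

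Atp6ap1, the other accessory gene, had 65.3 CPM in unstimulated m4 against 114 to 125 CPM in the others, and 53.9 CPM in YFP+ m3 against 177 to 228 CPM in the others. Its differences of 0.83 in YFP- (adjusted p = 0.0733) and 0.48 in YFP+ cells (adjusted p = 0.273) did not pass with all libraries. Without these 2 libraries they were 0.61 (adjusted p = 0.00152) and 0.74 (adjusted p = 0.000444), and both passed.

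Relative to unstimulated cells, the lysosomal membrane genes held the widest range of differences among the roles. Cd63, a tetraspanin of late endosomes and granules, had 10.4, 12.7, 7.78 and 17.0 CPM in the unstimulated samples, 151, 172, 126 and 197 CPM in the YFP- samples and 194, 234, 181 and 250 CPM in the YFP+ samples. All 8 stimulated samples lay far above the unstimulated ones, and the stimulated groups overlapped. Cd63 was 13.8-fold higher in YFP- (log2 difference 3.79, SE 0.22, adjusted p = 3.70e-08) and 18.5-fold higher in YFP+ cells (4.21, SE 0.22, adjusted p = 4.48e-09), the widest gap from unstimulated cells among the 32 members. The difference of 0.42 between YFP+ and YFP- did not pass (adjusted p = 0.192), and it did with centring on expressed genes. The pseudogene Cd63-ps had 0.326 to 0.586 CPM in the unstimulated, 4.98 to 7.62 CPM in the YFP- and 6.95 to 10.1 CPM in the YFP+ samples, and how reads were shared between the copies is not given in the sources used here.

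Cd68, the heavily glycosylated membrane protein often used to mark macrophages, was lower in YFP- than in unstimulated cells and lower again in YFP+ cells. It had 54.9, 56.9, 50.6 and 58.9 CPM in the unstimulated, 38.6, 43.0, 29.8 and 26.9 CPM in the YFP- and 18.0, 23.5, 14 and 15.6 CPM in the YFP+ samples. No pair of groups overlapped. It was 1.63-fold lower in YFP- than in unstimulated cells (log2 difference -0.70, SE 0.18, adjusted p = 0.00554) and 1.95-fold lower in YFP+ than in YFP- cells (-0.96, SE 0.18, adjusted p = 0.00207). The first call was lost without m4 (-0.56, adjusted p = 0.0616). Macrophage and monocyte markers summed to 3.0 CPM or less in every library. In bulk RNA, fewer cells with a transcript and less of it per cell cannot be told apart.

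Scarb2, which encodes LIMP-2, the receptor that carries glucocerebrosidase to lysosomes, had 42.4, 44.1, 42.0 and 32.7 CPM in the unstimulated, 37.9, 47.2, 41.8 and 33.7 CPM in the YFP- and 26.5, 32.1, 12.6 and 18.1 CPM in the YFP+ samples. The unstimulated and YFP- groups overlapped, and the YFP+ group lay below both. The gene was 1.90-fold lower in YFP+ than in YFP- cells (log2 difference -0.93, SE 0.24, adjusted p = 0.0145). This call was lost when the samples labelled m3 (-0.66, adjusted p = 0.0694) or m4 (-0.94, adjusted p = 0.0648) were left out, and it held without the 2 libraries that stood apart (-0.68, adjusted p = 0.0205).

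Npc1, a cholesterol exporter of the lysosomal membrane, had 20.7, 23.3, 22.2 and 22.8 CPM in the unstimulated, 9.16, 9.10, 9.10 and 6.69 CPM in the YFP- and 5.52, 9.05, 8.76 and 7.84 CPM in the YFP+ samples. The unstimulated samples lay above all others, and the stimulated groups overlapped. Npc1 was 2.63-fold lower in YFP- (log2 difference -1.40, SE 0.17, adjusted p = 2.16e-05) and 2.91-fold lower in YFP+ cells (-1.54, SE 0.17, adjusted p = 4.01e-06). Its exons overlap those of Rmc1 on the opposite strand, which reached 52.6 CPM. Whether the counting used strand is not given in the sources used here, so reads of the pair may not be separated.

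The remaining membrane genes were Lamp2, Laptm5 and Mcoln1. Lamp2, a main structural protein of the lysosomal membrane, was 1.46-fold higher in YFP- than in unstimulated cells (adjusted p = 0.0268) and had 40.4 CPM ± 6.67, 58.8 CPM ± 8.27 and 46.1 CPM ± 11.7 in the unstimulated, YFP- and YFP+ samples. That call was lost in 6 of 17 alternative settings, among them leaving out f2, m2 or m4. Laptm5, a transporter-like protein of blood cell lysosomes, had 1554 CPM ± 407, 1393 CPM ± 427 and 729 CPM ± 371, and was 2.31-fold lower in YFP+ than in unstimulated cells (adjusted p = 0.00906), a call lost when the samples labelled m3 were left out. Its difference of -1.05 between YFP+ and YFP- lay at the edge of the threshold (adjusted p = 0.0502). Mcoln1, the calcium channel whose opening feeds back on TFEB, had 8.51 CPM ± 1.88, 11.6 CPM ± 3.10 and 8.68 CPM ± 3.78 and passed in no comparison.

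**Figure D3:**
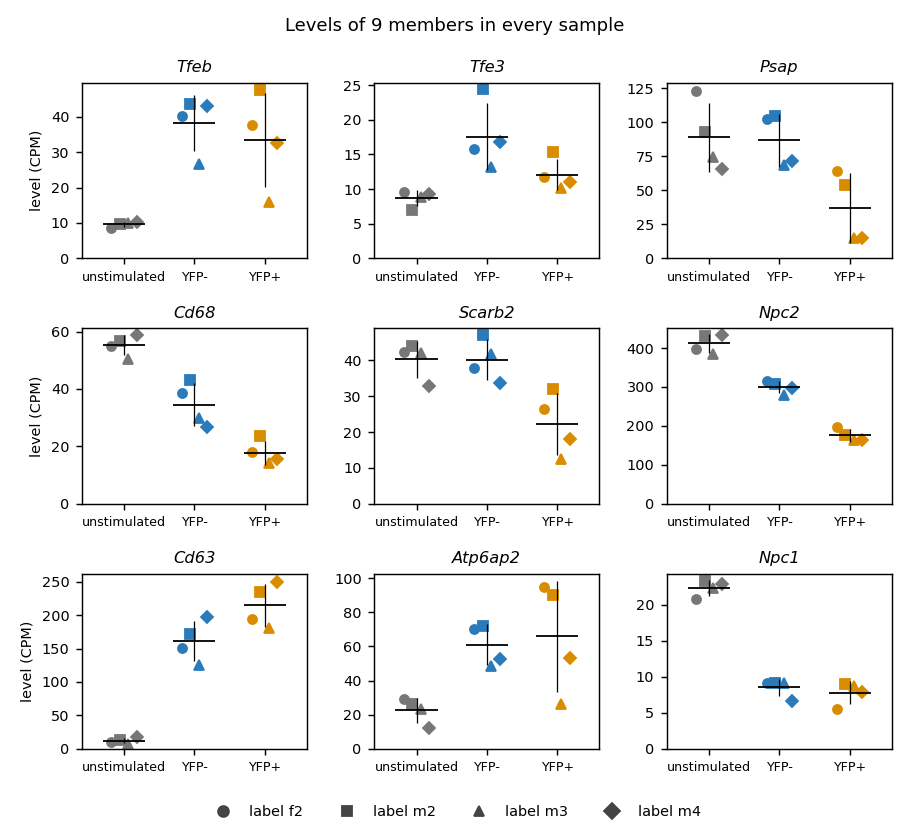
Levels of the 9 members described sample by sample, in CPM on linear axes that start at 0. Markers show the sample labels, horizontal bars the group mean and vertical bars ± 1 SD (n = 4). Tfeb and Cd63 are high in all 8 stimulated samples, Npc1 is low in them, and Cd68 and Npc2 fall into 3 separate levels.

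Among the proteases, Ctsd encodes cathepsin D, an aspartic protease with a central part in lysosomal protein breakdown, and Ctsa encodes cathepsin A, which also protects other lysosomal enzymes. Ctsd had 680 to 858 CPM in the unstimulated, 412 to 713 CPM in the YFP- and 249 to 458 CPM in the YFP+ samples. The YFP+ samples lay below all unstimulated ones, and the YFP- samples overlapped both. It was 2.34-fold lower in YFP+ than in unstimulated cells (adjusted p = 0.000150), 1.49-fold lower in YFP- than in unstimulated cells (adjusted p = 0.0302) and 1.57-fold lower in YFP+ than in YFP- cells (adjusted p = 0.0374). Leaving out the samples of any one label ended the last of these calls (adjusted p from 0.0595 to 0.143), and the YFP- call against unstimulated cells was lost without f2, m3 or m4 (adjusted p from 0.0605 to 0.0945).

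Ctsa had 208 to 235 CPM in the unstimulated, 144 to 219 CPM in the YFP- and 75.9 to 155 CPM in the YFP+ samples. It was 2.02-fold lower in YFP+ than in unstimulated cells (adjusted p = 0.000794) and 1.57-fold lower in YFP+ than in YFP- cells (adjusted p = 0.0397). The latter call was lost without m2, m3 or m4 (adjusted p from 0.0837 to 0.123) and with trimmed-mean scaling. Exons of Ctsa overlap those of Pltp on the opposite strand, which reached 18.5 CPM.

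As fitted here, Ctsz, the carboxypeptidase cathepsin Z, was the one tested protease that passed as higher than in unstimulated cells. It was 1.41-fold higher in YFP- (adjusted p = 0.00899) and 1.32-fold higher in YFP+ cells (adjusted p = 0.0237). Its level went from 71.1 CPM ± 3.49 to 100.7 CPM ± 8.84 and 95.2 CPM ± 19.5. The YFP- call was lost without m2 or m4 (adjusted p of 0.0599 and 0.0566), and the YFP+ call without f2, m2 or m4 (adjusted p from 0.0669 to 0.144) and with totals that left out ribosomal RNA-like features. It shares exonic sequence with Nelfcd on the opposite strand, which reached 58.7 CPM. Ctsb, the cysteine protease cathepsin B, passed in no comparison as fitted here, with 240 CPM ± 12.9, 226 CPM ± 26.7 and 207 CPM ± 60.7. After quantile normalization it passed as lower than in unstimulated cells in both stimulated groups. With totals that left out ribosomal RNA-like features it did so in YFP+ cells. Its exons overlap those of Fdft1 on the opposite strand, which reached 174 CPM. Tpp1, a tripeptidase, had 48.8 to 56.4 CPM in 3 unstimulated samples and 18.4 CPM in m4, then 61.4 to 104 CPM in YFP- and 12.5 to 73.8 CPM in YFP+ samples. Its differences of 0.97 in YFP- and -0.11 in YFP+ cells against unstimulated cells, and of -1.09 between YFP+ and YFP-, did not pass. Of 17 alternative settings, the first of these passed in 4 and the last in 1.

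Of the glycosidases and lipid-handling proteins, Psap showed the widest gap between the stimulated populations. Psap encodes prosaposin, the precursor of the saposins that present sphingolipids to their hydrolases. It had 123, 92.9, 74.5 and 65.8 CPM in the unstimulated samples f2, m2, m3 and m4, 103, 105, 68.8 and 71.4 CPM in the YFP- and 63.9, 53.9, 15.2 and 14.8 CPM in the YFP+ samples. The YFP+ samples lay below all others and fell into a higher pair, f2 and m2, and a lower pair, m3 and m4. The gene was 2.87-fold lower in YFP+ than in YFP- cells (log2 difference -1.52, SE 0.43, adjusted p = 0.0215) and 2.91-fold lower in YFP+ than in unstimulated cells (-1.54, SE 0.43, adjusted p = 0.00655). The first call was lost without m3 (-1.30, adjusted p = 0.0833), without m4 (-1.27, adjusted p = 0.107) and without the 2 libraries that stood apart (-1.20, adjusted p = 0.0528).

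Npc2, the soluble protein that hands cholesterol to NPC1, had 397, 432, 385 and 434 CPM in the unstimulated, 316, 308, 279 and 298 CPM in the YFP- and 198, 176, 164 and 164 CPM in the YFP+ samples. No pair of groups overlapped and the spread within each was narrow. It was 1.37-fold lower in YFP- than in unstimulated cells (log2 difference -0.46, SE 0.10, adjusted p = 0.00176) and 1.72-fold lower in YFP+ than in YFP- cells (-0.78, SE 0.10, adjusted p = 0.000126). Npc2 and Cd68 were the 2 members whose YFP+ against YFP- call held in all 17 alternative settings.

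As fitted here, Gusb, the glycosidase beta-glucuronidase, was the one tested member of this role that passed as higher. It had 18.4 to 28.6 CPM in the unstimulated, 48.5 to 61.0 CPM in the YFP- and 28.1 to 80.4 CPM in the YFP+ samples, and was 2.33-fold higher in YFP- (adjusted p = 0.00220) and 2.05-fold higher in YFP+ cells (adjusted p = 0.00474). The other 5, namely Hexa, Gaa, Gla, Glb1 and Lipa, passed in no comparison as fitted here. Against unstimulated cells, Hexa passed as lower in YFP+ cells in 3 and in YFP- cells in 1 of 17 alternative settings. Gla passed as higher in YFP+ cells and Lipa in YFP- cells in 1 each. Lipa also passed in 1 as lower in YFP+ than in YFP- cells. Hexa, a hexosaminidase subunit, had 45.0 CPM ± 4.12, 41.3 CPM ± 6.29 and 34.7 CPM ± 8.22. Gaa and Gla, the enzymes that free glucose from glycogen and galactose from globosides, stayed between 5.69 and 15.6 CPM in every sample. Glb1, a beta-galactosidase, and Lipa, the acid lipase, had 13.6 and 6.10 CPM in YFP+ m3, against 45.3 to 76.4 and 8.18 to 24.7 CPM in the other YFP+ samples. Glb1 shares exons with Tmppe on the same strand.

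Over the 20 tested lysosomal members without the transcription factors and the pump, 4 were higher and 4 lower in YFP- than in unstimulated cells, and 3 higher and 8 lower in YFP+ than in unstimulated cells. Between YFP+ and YFP- 0 were higher and 6 lower, and after centring 1 was higher, Cd63, and 4 lower. The shares that passed, 40%, 55% and 30%, stood beside 51.1%, 60.8% and 21.8% of all genes. Between YFP+ and YFP- the 20 had a median difference of -0.53, which was -0.38 with trimmed-mean scaling and -0.27 after centring. Summed over all 21 with Ctsh, the level was 3757 CPM ± 565 (SD, n = 4) in the unstimulated, 3426 CPM ± 716 in the YFP- and 2246 CPM ± 741 in the YFP+ samples. Laptm5 and Ctsd together made up 62.5%, 56.4% and 48.0% of these sums. The median difference of the 20 from unstimulated cells in YFP+ cells was -0.25, and became 0.03 without the samples labelled m3.

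On the scale of mean CPM per kilobase of annotated exon, Laptm5 and Ctsd had the highest levels among the members, at 410 and 338 in unstimulated cells and 192 and 149 in YFP+ cells. Npc2 came next in unstimulated cells, at 75.8, and had 55.2 in YFP- and 32.2 in YFP+ cells. Pump genes were not at one level on that scale. Atp6v0b rose from 42.3 ± 3.72 to 79.2 ± 2.47 and 93.9 ± 6.17, and Atp6v0c from 29.5 ± 0.949 to 73.8 ± 9.03 and 73.3 ± 10.8, while Atp6v1h was at 3.54 ± 1.22, 7.61 ± 0.825 and 7.5 ± 3.47. Cd63 was at 3.26 ± 1.06 in unstimulated cells and at 43.9 ± 8.26 and 58.3 ± 8.86 in YFP- and YFP+ cells. Of the transcription factor genes, Tfeb was at 1.69, 6.76 and 5.89 and Tfe3 at 0.937, 1.89 and 1.30. Exon length over all transcripts stands in for the length of the transcripts in use.

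The promoters were read for the element that TFEB and its relatives bind, since both factor genes are among the members. RefSeq promoter sequences on GRCm38.p6, from 250 bases before to 50 after the gene start, were at hand for 28 of the 33 members. The palindrome TCACGTGA, which reads the same on both strands and contains the E-box CACGTG, was present in 6 of the 28 (21.4%) and in 304 of 27025 genes (1.12%). CACGTG alone was present in 9 of the 28 (32.1%) and in 8.09% of genes. The element was present at 2 of 8 pump genes, Atp6v0d1 and Atp6v1a, and at 4 of 18 lysosomal genes, Ctsa, Ctsd, Gla and Mcoln1. Of these 6, Ctsd and Ctsa were lower in the comparisons given above, and the other 4 passed in no comparison as fitted here. The sites shown are those of the 4 genes with the largest difference, in either direction, between YFP+ and unstimulated cells, in the gene's own 5′ to 3′ direction with TCACGTGA in capitals.
Ctsd, chr7:142387908-142387937, minus strand: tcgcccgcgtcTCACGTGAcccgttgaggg
Ctsa, chr2:164833758-164833787, plus strand: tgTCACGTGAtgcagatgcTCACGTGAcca
Gla, first site, chrX:134601215-134601244, minus strand: taagcgattgaTCACGTGAgcatctacgtc
Gla, second site, chrX:134601182-134601211, minus strand: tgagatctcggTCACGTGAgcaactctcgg
Atp6v1a, chr16:44139373-44139402, minus strand: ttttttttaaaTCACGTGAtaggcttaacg
The elements begin 99 bases before the RefSeq start of Ctsd, 13 bases before and 5 bases into that of Ctsa, 228 and 195 bases before that of Gla and 132 bases before that of Atp6v1a. In GENCODE annotation the Ctsd and Ctsa sites overlap untranslated exon sequence of these genes, the Gla sites that of the neighbouring gene Hnrnph2, and the Atp6v1a site lies within the gene outside its exons. A match describes these letters and not binding.

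Members varied among libraries of one group. In YFP+ cells sample f2 held the highest level of 22 and m3 the lowest level of 21 of the 32 members, against 33.4% and 40.8% of all genes tested. Beside Psap, the members more than 1 log2 unit low in YFP+ m3 were Atp6ap1, Atp6ap2, Atp6v1h, Glb1, Gusb, Laptm5, Lipa, Tfeb and Tpp1, whereas 11.6% of all genes tested were that low there. In unstimulated m4 the corresponding members were Atp6ap2, Atp6v1h, Glb1 and Tpp1, against 4.19% of all genes. Npc2, Atp6v0b, Atp6v1d and Atp6v0c had the narrowest spread, with an SD of log2 CPM of at most 0.13, 0.13, 0.16 and 0.21 in any group.

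**Figure D4:**
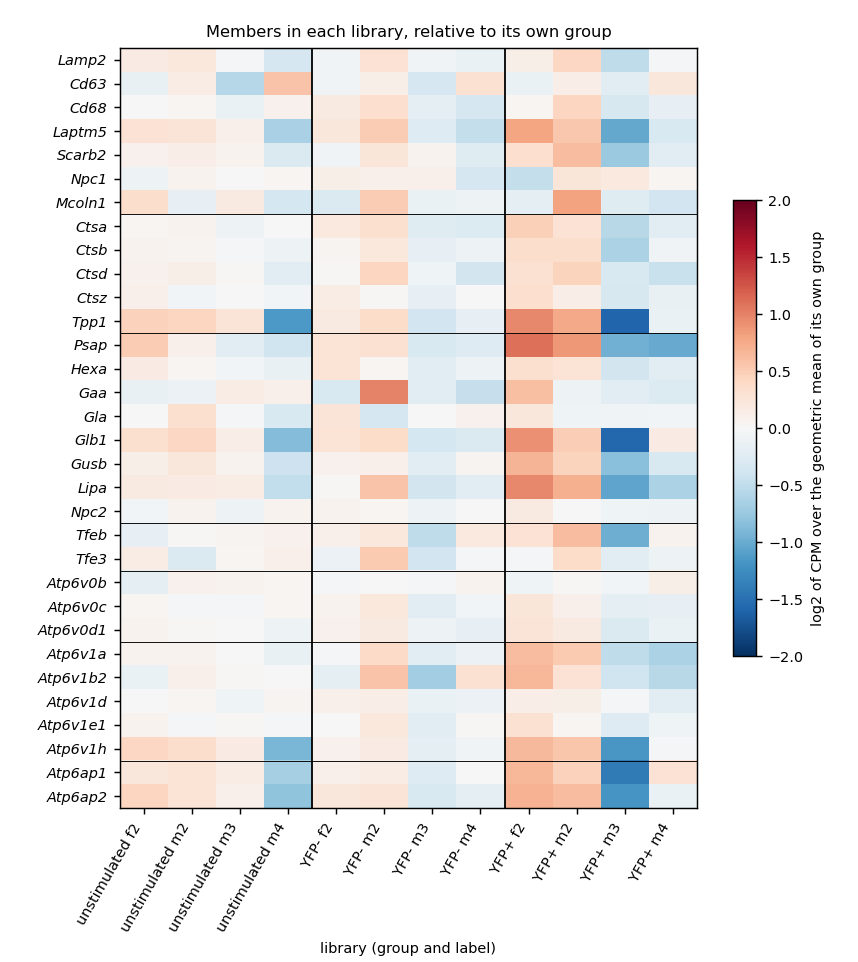
Level of each tested member in each of the 12 libraries, as the log2 of its CPM over the geometric mean of its own group, with blue low and red high. Horizontal lines part the roles and vertical lines the groups. The column of YFP+ m3 is blue for most rows, deepest for Tpp1, Glb1 and Atp6ap1, and unstimulated m4 is blue for Tpp1, Glb1, Atp6v1h and Atp6ap2.

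Genes of the pathway outside the 33 were read from 5 lists of 106 genes, of which 94 were tested. For each list, the shares that passed are set beside those of all genes, 51.1% in YFP- against unstimulated cells, 60.8% in YFP+ against unstimulated cells and 21.8% in YFP+ against YFP- cells. Calls of the genes named from these lists also depended on the processing. Counted once per gene and alternative setting, a call was lost 41 times in YFP+ against YFP- cells. It was lost 20 times in YFP- and 21 times in YFP+ against unstimulated cells. These losses are not listed gene by gene. In other pump subunits, 4 of 10 were higher and 0 lower in YFP- than in unstimulated cells, 4 higher and 2 lower in YFP+ than in unstimulated cells, and 1 higher and 1 lower in YFP+ than in YFP- cells, or 40.0%, 60% and 20.0% of the 10. The last 2 were alternative forms of the subunit that anchors the pump and forms its proton path. Atp6v0a1 had 2.08 to 5.46 CPM in YFP- and 6.10 to 9.14 CPM in YFP+ samples (log2 difference 1.04, adjusted p = 0.0203), and Tcirg1, the a3 form, had 15.8 to 26.2 and 4.67 to 18.1 CPM (-1.23, adjusted p = 0.0353). Atp6v0a4, another form, had 0 to 0.629 CPM in unstimulated and 4.15 to 6.44 CPM in YFP- samples (adjusted p = 0.000402).

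Other lysosomal hydrolases and cofactors, 33 of 36 tested, had more lower than higher calls. As scaled here, between YFP+ and YFP- 0 were higher and 10 lower (30.3%), with a median of -0.55. Of all genes 3.28% were higher and 18.5% lower, with a median of -0.19. The direction of that background depends on the scaling, and this list is given on the main scaling alone. Against unstimulated cells 3 were higher and 11 lower in YFP- cells (42.4% passed), and 2 higher and 18 lower in YFP+ cells (60.6%), where 20.9% and 33.3% of all genes were lower. Sgsh, a heparan sulfatase, had 0.599 to 1.22 CPM in YFP- and 0.0622 to 0.258 CPM in YFP+ samples, where it rests on 2 to 14 reads (adjusted p = 0.00102). Ctsl, the cysteine protease cathepsin L, went from 0.301 to 1.68 CPM in unstimulated to 6.54 to 9.10 CPM in YFP- samples (log2 difference 3.36, adjusted p = 1.08e-05). Smpd1, acid sphingomyelinase, went from 28.4 to 73.8 CPM down to 8.79 to 15.3 CPM (-2.18, adjusted p = 0.00180).

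Among 17 tested genes for other lysosomal membrane proteins, 5 were higher and 4 lower in YFP- than in unstimulated cells, 3 higher and 5 lower in YFP+ than in unstimulated cells, and 1 higher and 2 lower in YFP+ than in YFP- cells. These were 52.9%, 47.1% and 17.6% of the list. The nucleoside transporter gene Slc29a3 was higher in YFP+ than in YFP- cells (log2 difference 0.62, adjusted p = 0.0415) and the sialic acid exporter gene Slc17a5 lower (-1.16, adjusted p = 0.0104). Laptm4b rose (2.35, adjusted p = 0.00224) and the ion channel gene Tpcn1 fell (-0.92, adjusted p = 0.00289) in YFP- relative to unstimulated cells.

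Of 18 tested genes for delivery to lysosomes, 5 were higher and 1 lower in YFP- than in unstimulated cells, 5 higher and 2 lower in YFP+ than in unstimulated cells, and 0 higher and 2 lower in YFP+ than in YFP- cells. The 33.3%, 38.9% and 11.1% that passed lay below the shares of all genes. M6pr, a mannose 6-phosphate receptor that carries new hydrolases to endosomes, went from 78.5 to 120 CPM in unstimulated to 244 to 286 CPM in YFP- samples (log2 difference 1.32, adjusted p = 0.000672). The adaptor gene Plekhm1 was lower there (-0.54, adjusted p = 0.0341), and the tethering complex gene Vps41 was lower in YFP+ than in YFP- cells (-0.63, adjusted p = 0.0210).

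Of 16 tested genes for mTORC1 and MiT/TFE control at the lysosome, 6 were higher and 4 lower in YFP-, and 5 higher and 5 lower in YFP+, relative to unstimulated cells, or 62.5% of the list in each. Rragd, a Rag GTPase, had 4 to 11 reads per library in unstimulated cells and 0.953 to 3.22 CPM in YFP- samples (log2 difference 3.48, adjusted p = 1.49e-05). Rheb, the GTPase that switches mTORC1 on, rose from 82.8 to 94.9 CPM in unstimulated to 214 to 266 CPM in YFP- samples (1.48, adjusted p = 3.96e-07) and was higher again in YFP+ than in YFP- cells (0.36, adjusted p = 0.0357). Lamtor4, a subunit of the Ragulator scaffold, fell from 123 to 144 CPM in unstimulated to 49.5 to 59.0 CPM in YFP- samples (-1.27, adjusted p = 2.56e-06) and was lower again in YFP+ than in YFP- cells (-0.45, adjusted p = 0.0164). Rheb and Lamtor4 were the 2 genes of that list that passed between the stimulated populations, 12.5% of it.

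**Figure D5:**
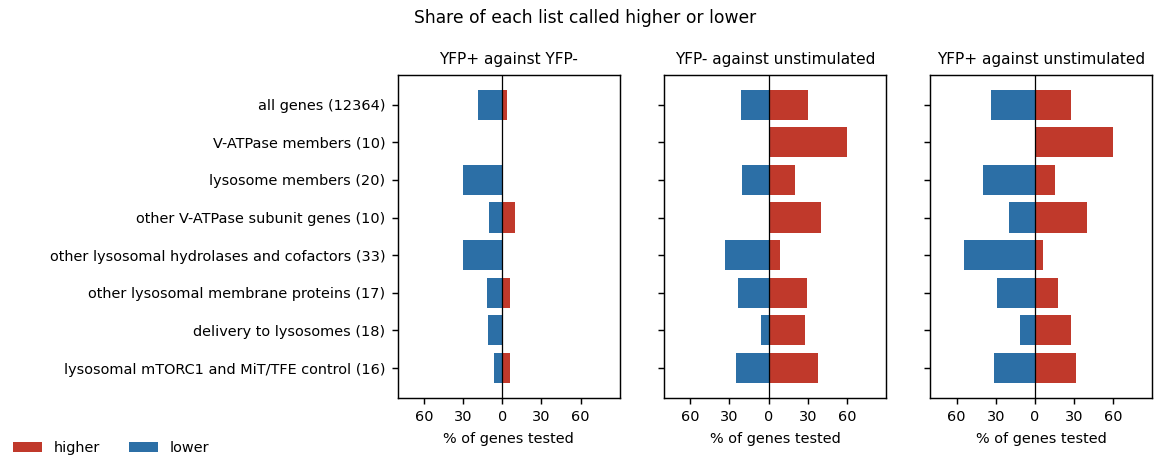
Percentage of the tested genes of each list that passed the test as higher (red, to the right) or lower (blue, to the left) in each comparison, with the number tested in brackets. Pump members have red bars of 60% and no blue bar against unstimulated cells, and lysosome members and other hydrolases have blue bars alone, about 30% long, between YFP+ and YFP-, where all genes have 18.5% blue and 3.28% red. All bars show the main scaling, and the direction of the all-gene bars depends on it. Between YFP+ and YFP-, Cd63 passed as higher after centring, where Ctsa and Ctsd were lost. Without the samples labelled m3 only Cd68 and Npc2 of the members passed.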

How the data were processed

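RNA of 12 NK cell samples was amplified with a low-input cDNA kit and sequenced as paired ends, per the labels' protocols. Reads were processed with bcl2fastq, STAR 2.7.9a, Subread and featureCounts 2.0.3 on GRCm38, per the submitters' processing notes. The deposited values are log2 CPM (counts per 1000000 reads) with a prior count of 0.5 scaled to each library total. That formula gave back the deposited log2 values to within 5.15e-14 and whole reads, within 0.1 of a read, for 100% of values. The table had 55774 lines, of which 287 repeated a gene ID with identical values. Strand use and the annotation are not given in the sources used here; gene positions, exon lengths and overlaps were taken from GENCODE release M21, which held 99.5% of the IDs.

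Genes above log2 CPM 0 in at least 4 samples (12364) were fitted with limma 3.58.1 in R 4.3.3, with 1 coefficient per group over all 12 samples and an intensity trend, and p-values were adjusted by the Benjamini-Hochberg method over all of them. The call threshold was an adjusted p of 0.05. Fold changes are 2 to the power of the difference in mean log2 CPM and intervals are 95%. The fit was also run on simulated reads in which few genes changed, and only in YFP+ samples. That setting differs from these data, where many genes passed, so it does not bear on the calls given here. CPM of single samples were computed from the recovered reads. Libraries held 32.1 to 54.2 M reads. Ribosomal RNA-like features were 359 rows, those with an rRNA biotype and Lars2, Mir6236 and Gm23935. Figures were drawn with Python 3.11.15 and matplotlib 3.10.9.

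The members and gene lists were chosen with earlier results of these data known. All 33 members are named. Values for every sample are given for Tfeb, Tfe3 and the 4 members that differed most among those called in each comparison. From each other list the largest rise and fall among called genes are named, in YFP+ against YFP- and in YFP- against unstimulated. The 17 alternatives changed the filter, pseudocount, scaling, library totals, pairing, samples or variance model, and 1 of them, without the unstimulated m4 and YFP+ m3 libraries, was chosen after seeing the data.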

Additional observations from a re-analysis of the deposited data

Results flagged for a closer look

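Of 96 sets of 4 values (32 members in 3 groups), 11 held a sample whose gap to its nearest neighbour, as a share of the group's range, exceeded Dixon's 95% critical value for 4 samples. The ratios were computed on log2 CPM, whereas the levels printed beside them are CPM. Chance alone would give about 4.8. Unstimulated m4 was the low sample in 4 of the 11. It had 32.7 CPM of Scarb2 against 42.0 to 44.1 in the others (ratio 0.835), 18.4 CPM of Tpp1 against 48.8 to 56.4 (0.871), 10.6 CPM of Lipa against 16.5 to 16.9 (0.945) and 65.3 CPM of Atp6ap1 against 114 to 125 (0.863). Unstimulated f2 was low for Atp6v0b, with 75.4 CPM against 88.9 to 91.6 (0.847).

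In YFP- cells m3 was low for Tfeb, with 26.5 CPM against 40.2 to 43.5 (0.842), and for Gusb, with 48.5 CPM against 59.2 to 61.0 (0.866). Sample m4 was low for Npc1, with 6.69 CPM against 9.10 to 9.16 (0.977). Sample m2 was high for Lamp2, with 71.1 CPM against 53.1 to 55.6 (0.844), and for Gaa, with 15.6 CPM against 5.69 to 6.73 (0.834). In YFP+ cells f2 was high for Gla, with 11.5 CPM against 9.33 to 9.46 (0.934). No member was flagged for YFP+ m3, whose group was spread widely.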

How the results depend on the processing

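The number of members that passed between YFP+ and YFP- (6 of 32) depended most on the processing. It was 2 without the filter on low values, where 55487 features were tested, 3 in a fit of only the 8 samples compared, 3 without the unstimulated m4 and YFP+ m3 libraries, and 2 to 5 when the samples of 1 label were left out (2 without m3 and 2 without m4). With the sample label as a replicate block it was 10, with Cd63, Laptm5, Lipa and Tpp1 added. The labels do not say that samples of one name share an animal, and deviations of same-named samples correlated at 0.05 to 0.37 for YFP+ and YFP-, -0.06 to 0.10 for YFP- and unstimulated and -0.04 to 0.38 for YFP+ and unstimulated, each sample correlating best with its own name in 3, 1 and 2 of 4 cases. For YFP- against unstimulated cells (16) no filter gave 11, the block gave 20 and leaving out 1 label gave 10 to 17, with 10 without m4. For YFP+ against unstimulated cells (18) no filter gave 12 and the block 19. Other alternatives kept each count within 1.5 times, and no called difference changed sign in any. The cause of these shifts was not tested. Low-count genes such as Sgsh in YFP+ cells and Rragd in unstimulated cells are limited by depth.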
